A study of Mus musculus with 11 samples.

Results

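The genes described here are the mouse Zfp genes whose symbols run from Zfp600 to Zfp999, chosen by number alone. Mouse zinc finger genes are numbered largely in the order of their naming, so the range is a slice of the zinc finger repertoire and not a functional class. It held 174 genes of the 55228 symbols counted, and 158 of them had enough reads to enter the test, which covered 16420 genes in all. The other 16 had at most 11 counts in any library, 7 of them with no count at all.

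Expression was profiled by RNA-seq in EN52.9.1 mouse embryonic stem cells, in which the endogenous architectural protein CTCF carries an auxin-inducible degron (CTCF-AID). The series addresses CTCF as a protein that binds G-quadruplexes, 4-stranded structures of guanine-rich DNA. All groups share this line and its degron allele. EV untreated cells (3 libraries) had no auxin, and the labels call their genotype wild-type. EV auxin cells (2 libraries) were given 500 µM of the auxin analog indole-3-acetic acid and are labelled as depleted of endogenous CTCF. FL auxin cells (3 libraries) had auxin and FL CTCF reintroduced. H373R auxin cells (3 libraries, titled ZF4) had auxin and CTCF with the H373R substitution reintroduced. The labels do not say how long auxin was given or how CTCF was put back, and nothing says that the libraries came from separate cultures, so p-values measure the spread between these libraries, which may be technical.

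Most Zfp proteins bind DNA through tandem Cys2-His2 zinc fingers, each finger reading a few bases. Many also carry a KRAB domain, which recruits the corepressor Trim28 and, through it, the histone methyltransferase Setdb1 and heterochromatin proteins. In embryonic stem cells these KRAB zinc finger proteins are known for silencing retrotransposons, and their genes lie in clusters of recent duplicates. Zfp proteins without a KRAB domain include chromatin, splicing and ribosome factors. Of the 171 members with a coding sequence, 115 matched a KRAB pattern and 56 did not. The KRAB group had a median of 11 fingers (range 0 to 33) and the others a median of 7 (range 0 to 27). Neighbours separated by at most 5 other protein-coding genes formed 12 clusters of 4 or more members, which held 79 genes, 69 of them with KRAB. The largest were 17 members on chromosome 4 between 145510759 and 147848366 and 14 on chromosome 17 between 21383748 and 22867134 (GENCODE M21, GRCm38).

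Promoters give a first view of what these genes share that the choice by number did not use. RefSeq windows (GRCm38.p6) from 250 bases before to 50 after the start existed for 147 of the 174 members. They were searched on both strands for 4 runs of GGG with 1 to 7 bases between runs, a G-quadruplex pattern, and for the CTCF core CCANNAGNNGGC. The G-quadruplex pattern lay in 14.3% of the tested members with a window, against 31.7% of all tested genes with one. Over members with a window, tested or not, it was in 5.94% of those with KRAB and 5.71% of those in clusters, against 27.9% of those without KRAB. A gene with more than 1 window was counted if any of them matched. The CTCF core lay in 3.01% of the tested members and 3.40% of all tested genes with a window. A match is a description of letters and not a site of binding.

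The 250 bases upstream of the start are shown in full for 4 genes because the values of their genes are described further on, with the G-quadruplex pattern in capitals. Zfp740 (chr15:102203750-102203999, plus strand) and Zfp640 (chr13:66680804-66681053, minus strand) hold the pattern, Zfp640 on the opposite strand, where it reads as runs of C. Zfp709 (chr8:71881818-71882067, plus strand) and its neighbour Zfp882 (chr8:71908356-71908605, plus strand) do not. The stretches of Zfp740 and Zfp640 lie inside the GENCODE spans of these genes (chr15:102203249-102215606 and chr13:66669928-66698243), so they precede an internal start.
Zfp740: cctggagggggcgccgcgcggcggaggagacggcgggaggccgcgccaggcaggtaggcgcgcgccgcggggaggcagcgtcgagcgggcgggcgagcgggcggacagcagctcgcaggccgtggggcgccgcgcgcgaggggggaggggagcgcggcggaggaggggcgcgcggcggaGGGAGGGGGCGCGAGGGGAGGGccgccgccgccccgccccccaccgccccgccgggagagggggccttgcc
Zfp640: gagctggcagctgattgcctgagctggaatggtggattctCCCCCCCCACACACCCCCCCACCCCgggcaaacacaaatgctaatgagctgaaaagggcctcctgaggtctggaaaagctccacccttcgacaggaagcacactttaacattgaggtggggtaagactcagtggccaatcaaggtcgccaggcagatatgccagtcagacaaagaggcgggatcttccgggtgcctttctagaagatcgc
Zfp709: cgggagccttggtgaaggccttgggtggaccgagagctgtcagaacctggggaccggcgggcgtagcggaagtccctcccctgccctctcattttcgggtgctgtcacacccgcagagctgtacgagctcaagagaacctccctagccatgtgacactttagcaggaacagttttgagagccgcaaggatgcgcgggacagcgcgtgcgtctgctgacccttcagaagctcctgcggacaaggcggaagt
Zfp882: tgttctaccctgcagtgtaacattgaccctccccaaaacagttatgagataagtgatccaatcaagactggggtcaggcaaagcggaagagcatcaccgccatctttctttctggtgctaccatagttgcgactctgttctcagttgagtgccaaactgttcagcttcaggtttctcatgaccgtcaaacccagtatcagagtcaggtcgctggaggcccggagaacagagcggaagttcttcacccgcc

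Levels were compared between genes as TPM, the deposited length-scaled abundance. The median member had a mean of 9.28 TPM over the 11 libraries, 151 members reached 1 TPM, 83 reached 10 TPM and 14 reached 50 TPM. The 5 highest were led by Zfp706 at 177 TPM, a small single-finger protein known to restrain stem cell self-renewal, and Zfp740 at 146 TPM. Below them came Zfp710 at 89.3, Zfp655 at 85.3 and the splicing and DNA-repair factor Zfp830 at 82.3 TPM, 3 neighbouring levels whose libraries overlapped. None of the 5 matched the KRAB pattern. Zfp710 passed no comparison, with group means between 86.3 and 90.7 TPM. Among KRAB members, those of the chromosome 4 cluster were abundant, with 4 above 50 TPM, led by Zfp979 at 75.7 TPM.

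Library totals were 13465241 to 29902246 counts, and the members took 0.349% to 0.388% of them. EV untreated replicate 1 stood apart: its members' summed TPM was 2658, against 3087 and 3095 in the other EV untreated libraries, and within its group its deviations rose with the GC content of genes (r = 0.56 across genes). Members were GC-poor, with a median of 42.3% over exons against 50.2% for all tested genes, and 36.2% in the chromosome 4 cluster. Counts of members called are therefore given also without that library and with each library's trends with GC content and gene length removed. Ctcf RNA was 227 to 286 TPM in all libraries and was not called in any of the 6 comparisons. The degron acts on protein, so this does not check depletion. Mean Ctcf RNA was 252 TPM in EV untreated, 284 in EV auxin, 253 in FL auxin and 246 in H373R auxin libraries. Expression of the reintroduced CTCF is thus not shown by these values. The summed TPM of 8 pluripotency markers was 9707 to 10670. Of these, Nanog and Zfp42 fell against EV auxin with FL (log2 fold change -0.35 and -0.30) and with H373R (-0.23 and -0.48), while 3 and 2 others rose. After auxin alone, against EV untreated cells, Esrrb, Tfcp2l1 and Sox2 fell (log2 fold change -0.33, -0.29 and -0.20) and Klf4 rose (0.35). The part of these marker changes in the results was not tested.

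Auxin alone moved few of these genes. Between EV auxin and EV untreated cells 7 members rose and 7 fell, 14 of 158 (8.86%), against 20.7% of all tested genes, 11.3% higher and 9.4% lower (edgeR, adjusted p under 0.05). The median log2 fold change was -0.02 against 0.01 over all tested genes. Without EV untreated replicate 1 the counts were 12 higher and 34 lower, where 33.3% of all tested genes were called. With GC and length trends removed they were 17 and 17, where 30.5% of all tested genes were called. Tests on log2(TPM + 1) with limma called 8 higher and 3 lower, and the share of all genes in that test is not given here. A change of at least 2-fold was called for 3 members, all lower, a class that held 1.71% of all tested genes: Zfp764, Zfp786 and Zfp783, the last named after its values were seen. The Zfp783 fall was called in 7 of 20 settings and was lost with DESeq2, with the replicate block, without a filter on low counts and without any one of 8 single libraries (each EV untreated and FL library, EV auxin replicate 2 and H373R replicate 2). Other Zfp genes outside the number range gave 14 higher and 13 lower of 193.

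The largest rise was that of Zfp703 (chr8:26977325-26981461), a transcriptional cofactor of the NET family known from breast cancer. Its CPM (library-size scaled counts, with TMM factors) were 3.66, 2.99 and 3.08 in EV untreated and 6.27 and 6.56 in EV auxin libraries (log2 fold change 0.97, SE 0.13, adjusted p = 9.1e-05). The FL auxin libraries had 6.25, 4.63 and 5.61 and the H373R auxin libraries 6.496, 6.93 and 6.500, all above every EV untreated library. Some of its exon sequence overlaps a gene on the opposite strand. Zfp703 was higher than in EV untreated cells with FL (log2 fold change 0.77, SE 0.13, adjusted p = 0.00026) and with H373R (log2 fold change 1.02, SE 0.12, adjusted p = 6.8e-06).

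Zfp667, a KRAB repressor on chromosome 7, and Zfp691, with 7 fingers and no KRAB match, followed the same course. Zfp667 went from 12.8, 13.6 and 14.7 CPM in EV untreated to 18.1 and 18.7 in EV auxin libraries (log2 fold change 0.43, SE 0.08, adjusted p = 0.0018), with 16.1, 18.2 and 17.3 in FL auxin and 18.6, 19.7 and 19.3 in H373R auxin libraries. Zfp691 went from 8.82, 7.93 and 7.49 to 11.7 and 10.3 CPM (log2 fold change 0.43, SE 0.10, adjusted p = 0.0052), with 11.7, 11.01 and 11.3 in FL auxin and 13.04, 13.4 and 12.9 in H373R auxin libraries. For both genes no auxin-treated library overlapped the EV untreated ones. Zfp746, also called PARIS, a repressor and parkin substrate, rose by less (log2 fold change 0.26, SE 0.07, adjusted p = 0.02). Its call was lost without either EV auxin library and without EV untreated replicate 2 or 3, and that of Zfp691 without EV auxin replicate 1.

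Zfp709 and Zfp882, KRAB genes that neighbour each other on chromosome 8 (71882019-71895727 and 71908608-71916354), rose with auxin as well. Zfp709 had 5.16, 6.85 and 5.99 CPM in EV untreated and 8.098 and 8.800 in EV auxin libraries (log2 fold change 0.51, SE 0.15, adjusted p = 0.02). It fell to 3.96, 4.86 and 6.02 with FL (log2 fold change -0.78, SE 0.16, adjusted p = 0.0023) and 5.12, 4.72 and 5.46 with H373R (log2 fold change -0.73, SE 0.15, adjusted p = 0.0032), levels that overlapped the EV untreated libraries. Zfp882 had 6.06, 7.59 and 6.32 CPM before and 10.1 and 10.8 after auxin (log2 fold change 0.67, SE 0.13, adjusted p = 0.0015). Its FL auxin libraries, at 7.16, 8.66 and 8.67 CPM, lay below both EV auxin libraries, but the difference did not pass the test (log2 fold change -0.37, SE 0.13, adjusted p = 0.0505). The H373R auxin libraries had 9.25, 9.15 and 7.46 CPM (log2 fold change -0.29, SE 0.12, adjusted p = 0.12 against EV auxin). The call of Zfp709 after auxin was lost without either EV auxin library, and that with H373R without EV auxin replicate 2. Neither upstream sequence printed above holds the G-quadruplex or the CTCF pattern.

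Among the genes that fell, Zfp764, Zfp786 and Zfp750 stayed below EV untreated cells with both forms of CTCF. Zfp764, a KRAB gene on chromosome 7 (127403668-127406822), had 2.53, 1.66 and 2.57 CPM in EV untreated and 0.798 and 0.789 in EV auxin libraries (log2 fold change -1.53, SE 0.33, adjusted p = 0.0021). FL auxin libraries had 1.57, 0.835 and 1.12 and H373R auxin libraries 0.516, 0.566 and 1.000 CPM, all below the EV untreated ones, and neither differed from EV auxin by the test (adjusted p = 0.23 and 0.81). It is a low gene, with 11 to 76 counts per library. Its near neighbour Zfp747, named here for its similar promoter, was not called after auxin (log2 fold change 0.12, SE 0.12, adjusted p = 0.55). Zfp764 shares 27.6% and Zfp747 36.9% of their 50-base subsequences with other genes, so part of their reads may come from copies. The 250 bases upstream of both genes (chr7:127406823-127407072 for Zfp764 and chr7:127376051-127376300 for Zfp747, both minus strand) matched at 219 of 257 aligned positions (85.2%), with the bases that differ or have no partner in capitals.
Zfp764: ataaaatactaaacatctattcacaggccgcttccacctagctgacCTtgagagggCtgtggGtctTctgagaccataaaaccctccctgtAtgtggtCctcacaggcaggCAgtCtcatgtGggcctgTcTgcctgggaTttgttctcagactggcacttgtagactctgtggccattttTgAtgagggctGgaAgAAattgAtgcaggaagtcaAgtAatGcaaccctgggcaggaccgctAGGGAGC
Zfp747: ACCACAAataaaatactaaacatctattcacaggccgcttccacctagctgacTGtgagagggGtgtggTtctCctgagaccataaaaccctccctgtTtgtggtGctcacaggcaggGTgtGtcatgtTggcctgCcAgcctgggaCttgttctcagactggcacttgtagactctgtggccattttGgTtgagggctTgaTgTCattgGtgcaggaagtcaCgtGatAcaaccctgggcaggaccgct

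Zfp786, a KRAB gene on chromosome 6, had 2.03, 2.99 and 2.53 CPM in EV untreated and 1.43 and 0.5396 in EV auxin libraries (log2 fold change -1.42, SE 0.32, adjusted p = 0.0033). Its FL and H373R auxin libraries lay between 0.867 and 1.34 CPM, below every EV untreated library. Its call after auxin was lost without EV auxin replicate 2. Zfp750 (chr11:121510978-121519333), known as a regulator of epidermal differentiation, fell from 13.8, 12.04 and 14.5 to 7.36 and 8.76 CPM (log2 fold change -0.74, SE 0.11, adjusted p = 0.00019). It had 8.398, 7.29 and 7.802 CPM with FL and 10.02, 10.1 and 9.27 with H373R. The H373R libraries lay above both the EV auxin and the FL auxin libraries without a called difference (log2 fold change 0.31, SE 0.10, adjusted p = 0.092 against FL).

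Zfp809 and Zfp871 fell after auxin and again with reintroduced CTCF. Zfp809, the KRAB protein that recognises the primer binding site of murine leukemia virus and brings Trim28 to it, lies at chr9:22225714-22243354. Its CPM was 32.3, 36.8 and 36.7 in EV untreated, 30.2 and 27.2 in EV auxin, 21.7, 24.1 and 25.8 in FL auxin and 21.4, 22.4 and 21.7 in H373R auxin libraries, groups that did not overlap except for FL and H373R. It fell after auxin (log2 fold change -0.30, SE 0.08, adjusted p = 0.02), again with FL (log2 fold change -0.26, SE 0.09, adjusted p = 0.04) and with H373R (log2 fold change -0.39, SE 0.09, adjusted p = 0.005). The fall after auxin was not called without EV untreated replicate 2 or 3 or EV auxin replicate 2, and the H373R step was not called without EV auxin replicate 1. The FL step was not called with RLE scaling or DESeq2, nor without any one of the EV auxin or H373R libraries or FL replicate 1 or 2. Zfp871, a KRAB gene of a chromosome 17 cluster, went from 32.4, 37.98 and 38.05 to 28.3 and 27.9, then 22.05, 21.8 and 25.04 with FL and 23.3, 19.2 and 20.00 CPM with H373R, the first fall being log2 fold change -0.36, SE 0.09, adjusted p = 0.013. Its FL step (log2 fold change -0.29, SE 0.10, adjusted p = 0.0471) and its fall after auxin were both lost without either EV auxin library. The FL step was also lost without EV untreated replicate 2, FL replicate 1 or 2 or H373R replicate 2 or 3, with RLE scaling, with DESeq2 and with GC and length trends removed.

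**Figure D1:**
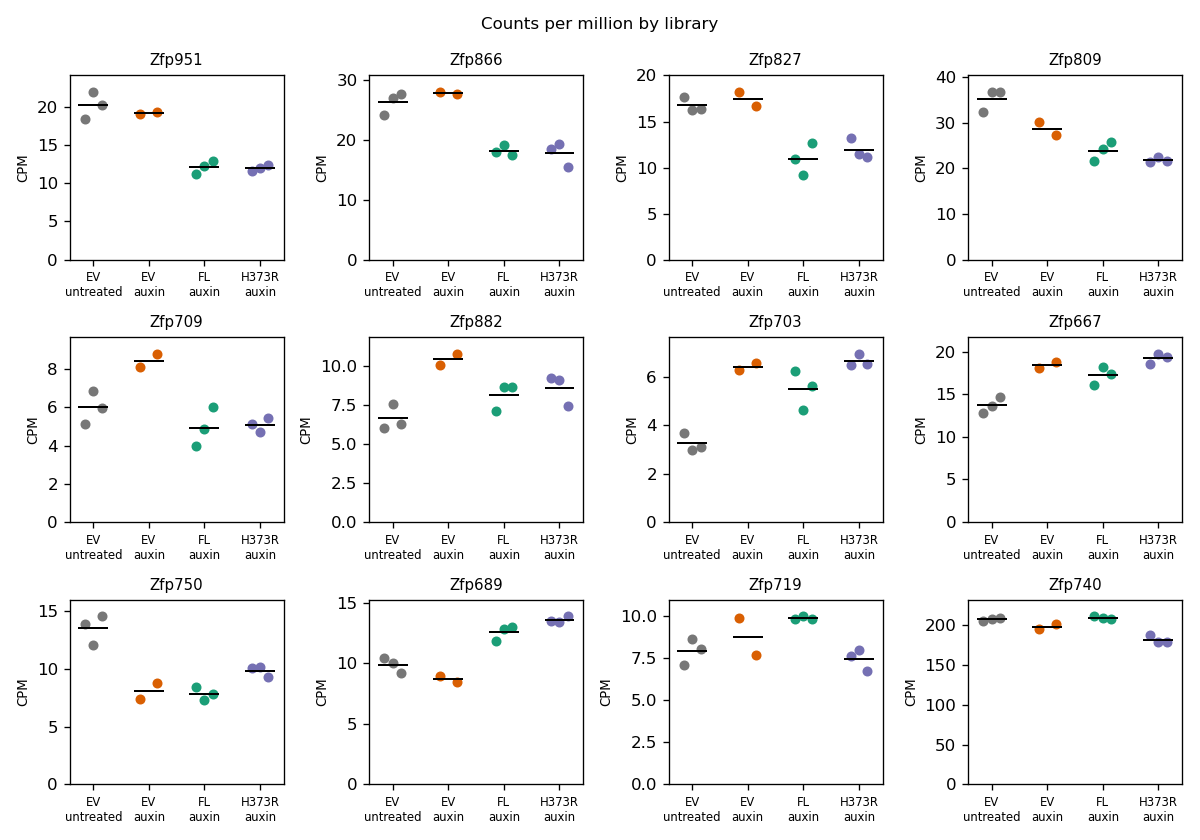
TMM-scaled CPM (y axis, from 0) of 12 named members in each of the 11 libraries (points) by group (x axis), with the group mean as a line. Zfp951, Zfp866 and Zfp827 are lower in the 6 FL and H373R auxin libraries than in all 5 EV libraries, and Zfp703 and Zfp667 are higher in the 8 auxin-treated libraries than in the 3 untreated ones.

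With reintroduced CTCF more members fell than rose against EV auxin cells, but with FL the share that fell was below that of all genes. With FL, 7 members rose and 18 fell, 25 of 158 (15.8%), against 24.5% of all tested genes, 11.1% higher and 13.4% lower. The lower calls made up 11.4% of members. With GC and length trends removed these counts were 19 and 22 (all genes 35.3% called), and without EV untreated replicate 1 they were 16 and 27 (all genes 35.5%). With H373R, 7 members rose and 24 fell, 31 of 158 (19.6%), against 21.7% of all tested genes, 10% higher and 11.7% lower. Here the lower calls made up 15.2% of members. Other Zfp genes outside the number range gave a like split with H373R, 5 of 193 higher (2.59%) and 28 lower (14.5%). With FL they gave 11 higher (5.7%) and 15 lower (7.77%). The median member's log2 fold change was -0.14 with H373R, where the median over all tested genes was 0.00, and -0.05 with FL, where it was -0.01. Without EV untreated replicate 1 the H373R counts were 11 and 42 (all genes 33% called), and with GC and length trends removed 10 and 31 (all genes 30.7%). In 71 of 158 members (44.9%) and 70 of 193 other Zfp genes all 3 H373R libraries lay below both EV auxin libraries, against 28.6% of all tested genes. With FL this held for 48 members (30.4%), against 29.1% of all tested genes.

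Each result against EV auxin rests on its 2 libraries. Leaving either one out lowered the FL count from 25 to 12 or 9, where 12.9% and 11.2% of all tested genes were called, and the H373R count from 31 to 10 or 11, where 8.85% and 9.13% were. Leaving out FL auxin replicate 1 lowered the FL count to 16 (all genes 18.2%). Markers of other cells also moved with these groups. All 6 primitive endoderm markers rose in FL and in H373R cells, with summed TPM of 61.6 to 66.7 and 39.9 to 44.1 against 21.7 to 22.0 in EV auxin and 18.1 to 19.3 in EV untreated libraries. Of 6 fibroblast markers 5 rose with FL and 3 with H373R (209 to 232 and 181 to 193 against 144 to 151 TPM in EV auxin), while the summed 2-cell markers stayed at 4.63 to 7.06 TPM in all libraries, with Tcstv1 at 0. After auxin alone 1 primitive endoderm marker rose, Gata4 (log2 fold change 0.66), and 2 fibroblast markers fell. In these bulk samples fewer cells of a type and less RNA per cell cannot be told apart, and the part of these other cells in the results was not tested.

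**Figure D2:**
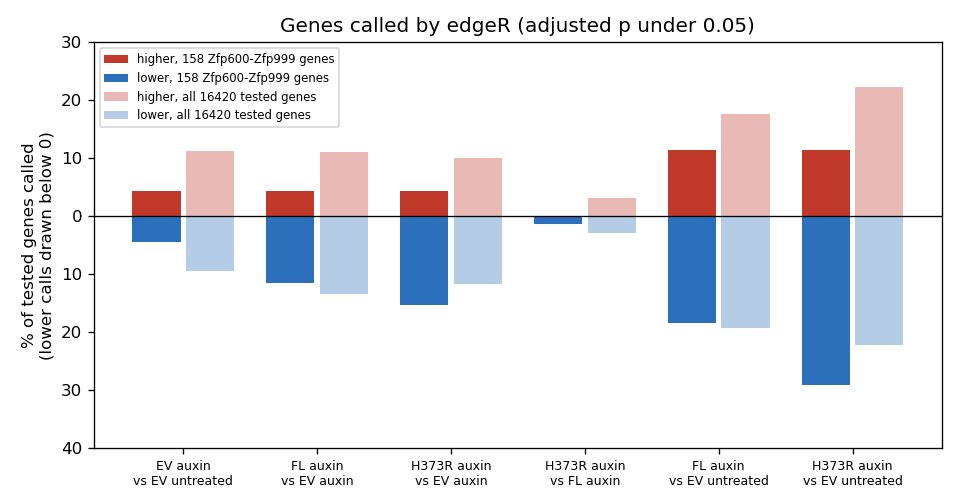
Percent of tested genes (y axis) called higher (above 0) or lower (below 0) by edgeR in each of 6 comparisons (x axis), for the 158 tested Zfp600 to Zfp999 genes (dark bars) and all 16420 tested genes (pale bars). For H373R auxin against EV auxin, 15.2% of members and 11.7% of all genes are lower, and 4.43% and 10% are higher.

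The clearest course among the lower genes was no called change with auxin and a fall with either form of CTCF. Zfp951, a KRAB gene at chr5:104813169-104860070, had 18.4, 21.98 and 20.2 CPM in EV untreated and 18.99 and 19.3 in EV auxin libraries, with 11.3, 12.2 and 12.9 in FL auxin and 11.6, 11.9 and 12.4 in H373R auxin libraries. It was not called after auxin (log2 fold change -0.07, SE 0.09, adjusted p = 0.64), and it fell with FL (log2 fold change -0.66, SE 0.09, adjusted p = 0.00016) and with H373R (log2 fold change -0.68, SE 0.09, adjusted p = 0.00019). No FL or H373R library reached the lowest EV library. Zfp866, a KRAB gene at chr8:69761326-69791178, went from 28.1 and 27.7 CPM in EV auxin to 17.99, 19.2 and 17.5 with FL (log2 fold change -0.62, SE 0.10, adjusted p = 0.00035) and 18.5, 19.3 and 15.5 with H373R (log2 fold change -0.65, SE 0.09, adjusted p = 0.0003). Its EV untreated libraries were at 24.1, 27.1 and 27.7 CPM. Zfp866 shares 12% of its 50-base subsequences with other genes (11.7% with Gm20422), so part of its reads may come from them.

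The same course was seen in genes without KRAB. Zfp827, which is known to bring the NuRD remodeller to telomeres, had 16.3 to 18.2 CPM in the 5 EV libraries and 10.97, 9.19 and 12.6 in FL auxin libraries (log2 fold change -0.66, SE 0.11, adjusted p = 0.00077 against EV auxin). With H373R it had 13.2, 11.5 and 11.2 CPM (log2 fold change -0.55, SE 0.11, adjusted p = 0.0027). Zfp638, also known as NP220, which silences unintegrated retroviral DNA together with the HUSH complex, fell from 186 and 172 CPM to 124, 140.5 and 142 (log2 fold change -0.40, SE 0.10, adjusted p = 0.008) and 131, 134 and 122 (log2 fold change -0.47, SE 0.10, adjusted p = 0.0033). Zfp609, a partner of the cohesin loader Nipbl and of Integrator, fell by less: log2 fold change -0.24, SE 0.07, adjusted p = 0.014 with FL and log2 fold change -0.29, SE 0.07, adjusted p = 0.005 with H373R. Zfp652, a transcriptional repressor whose exons overlap other genes on both strands, gave log2 fold change -0.32, SE 0.07, adjusted p = 0.0037 with FL and log2 fold change -0.36, SE 0.07, adjusted p = 0.0022 with H373R. Both genes lost both calls without EV auxin replicate 2, and Zfp638 lost both without EV auxin replicate 1. The FL call of Zfp609 was also lost without FL replicate 2.

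Zfp976 and Zfp640 lie in clusters and share sequence with other genes, so part of their reads may come from copies. Zfp976, a KRAB gene on chromosome 7, fell from 23.3 and 22.7 CPM to 12.9, 13.8 and 15.6 with FL (log2 fold change -0.70, SE 0.15, adjusted p = 0.0035) and 16.9, 16.3 and 14.7 with H373R (log2 fold change -0.53, SE 0.15, adjusted p = 0.017). Zfp640, annotated as a transcribed pseudogene, is the member whose sequence printed above, from inside the gene, has C runs. It fell from 8.098 and 7.72 CPM to 4.01, 4.94 and 4.49 with FL (log2 fold change -0.83, SE 0.22, adjusted p = 0.011) and 3.91, 4.72 and 3.81 with H373R (log2 fold change -0.93, SE 0.21, adjusted p = 0.0052). Zfp950, a KRAB gene on chromosome 19, fell with FL (log2 fold change -0.89, SE 0.26, adjusted p = 0.02) from 2.11 and 1.74 to 1.002, 0.987 and 1.07 CPM. With H373R its value was 1.33, 1.56 and 0.808 CPM (log2 fold change -0.65, SE 0.24, adjusted p = 0.062). Zfp640 and Zfp950 lost their FL call, and Zfp976 its H373R call, when either EV auxin library was left out, Zfp950 also without FL replicate 1 and Zfp976 also without H373R replicate 3.

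A smaller group rose with reintroduced CTCF. Zfp706, the most abundant member (chr15:36997027-37007773), had 209 and 205 CPM in EV auxin, 259.8, 280.1 and 263 in FL auxin and 233, 252 and 237 in H373R auxin libraries. The rise was log2 fold change 0.37, SE 0.05, adjusted p = 0.00024 with FL and log2 fold change 0.22, SE 0.05, adjusted p = 0.01 with H373R. Every FL library exceeded every H373R library, a difference that did not pass the test (log2 fold change -0.15, SE 0.05, adjusted p = 0.083). Zfp689, a KRAB gene at chr7:127442136-127449158, rose from 8.95 and 8.47 to 11.8, 12.8 and 13.00 CPM with FL (log2 fold change 0.53, SE 0.09, adjusted p = 0.001) and 13.5, 13.4 and 13.9 with H373R (log2 fold change 0.65, SE 0.09, adjusted p = 0.00027). Zfp775, on chromosome 6, rose from 12.5 and 12.6 to 19.4, 18.9 and 17.03 and 16.9, 16.3 and 18.5 CPM (log2 fold change 0.55, SE 0.11, adjusted p = 0.0015 with FL, log2 fold change 0.46, SE 0.10, adjusted p = 0.0056 with H373R). The H373R calls of Zfp706 and Zfp775 were lost without either EV auxin library, while Zfp689 kept both calls in every fit at the same threshold that left out 1 library. Exons of Zfp689 and Zfp775 overlap genes on the opposite strand, and whether counting used strand is not given in the sources used here.

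Zfp772, a KRAB gene on chromosome 7, rose from 7.76 and 7.97 to 11.02, 10.5 and 10.6 CPM with FL (log2 fold change 0.44, SE 0.11, adjusted p = 0.01) and 10.3, 11.3 and 10.6 with H373R (log2 fold change 0.44, SE 0.11, adjusted p = 0.0098). Zfp655, an abundant gene on chromosome 5, had 115 and 111 CPM in EV auxin, 127, 157 and 146 in FL auxin and 135, 156 and 139.6 in H373R auxin libraries (log2 fold change 0.34, SE 0.11, adjusted p = 0.041 with FL, log2 fold change 0.35, SE 0.11, adjusted p = 0.041 with H373R). Leaving out either EV auxin library ended both calls of Zfp772 and of Zfp655, and the FL call of Zfp655 was also lost without FL replicate 2 or 3 and its H373R call without FL replicate 3 or H373R replicate 2 or 3. Zfp771, with 8 fingers and no KRAB match, was called only against EV untreated cells, where its libraries were at 10.1, 4.36 and 5.36 CPM. It had 13.2, 10.6 and 12.8 CPM with FL (log2 fold change 0.86, SE 0.21, adjusted p = 0.0039) and 11.7, 12.6 and 12.04 with H373R (log2 fold change 0.84, SE 0.20, adjusted p = 0.003).

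FL and H373R cells differed from each other in 2 members, 1.27% against 5.96% of all tested genes (3.14% higher, 2.82% lower), and both were lower with H373R. Of Zfp740 (chr15:102203249-102215606), a GC-rich stretch inside the gene, printed above, holds the G-quadruplex pattern. The gene had 211, 209 and 207 CPM with FL and 188, 179 and 178 with H373R (log2 fold change -0.20, SE 0.04, adjusted p = 0.0085). Its EV untreated libraries had 205, 207 and 209 and its EV auxin libraries 195 and 201 CPM, all above the H373R ones. Zfp719, a KRAB gene at chr7:43579610-43593235, had 9.78, 9.95 and 9.79 CPM with FL and 7.61, 7.97 and 6.69 with H373R (log2 fold change -0.41, SE 0.11, adjusted p = 0.044). The EV libraries spanned 7.06 to 9.87 CPM. The Zfp719 call was lost without any one of the FL or H373R libraries or EV untreated replicate 3, and with the replicate block. Without EV untreated replicate 1 the test called 2 members higher and 19 lower with H373R (all genes 14.2% called), and with GC and length trends removed 1 and 9 (all genes 13.3%).

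Members in clusters and outside them were compared by their counts and medians, with no test of the difference. Against EV auxin, 13 of 72 tested members in clusters fell with H373R (18.1%, against 11.7% of all tested genes) and 2 rose, and their median log2 fold change was -0.25. Outside clusters 11 of 86 fell (12.8%) and 5 rose, with a median of -0.03. Members with KRAB had a median of -0.18 and those without 0.02, while the calls were ordered the other way: 14 of 105 members with KRAB fell (13.3%) and 9 of 50 without (18%). These classes overlap one another and the genes of a cluster share sequence, so their members are not independent. Removing GC and length trends moved the cluster median to -0.17 and that of KRAB members to -0.11.

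In the chromosome 4 cluster, which holds the stem cell gene Zfp982 and 16 other members, 16 were tested and edgeR called none after auxin, where 1 had an unadjusted p under 0.05 and DESeq2 called 0. Without EV untreated replicate 1 it called 7 lower, and with GC and length trends removed 1 lower. With H373R 3 fell against EV auxin (18.8%, against 11.7% of all tested genes) and 10 against EV untreated (62.5%, against 22.1%). With FL 1 fell against EV auxin (6.25%, against 13.4%) and 7 against EV untreated (43.8%, against 19.2%). Single libraries moved these counts: the 3 became 1 without EV auxin replicate 1, 2 without EV auxin replicate 2 or any H373R library, and 9 without EV untreated replicate 1. The 1 became 0 without either EV auxin library or FL replicate 1, 2 without FL replicate 3 and 3 without EV untreated replicate 1. The 7 became 2 without FL replicate 1 or EV untreated replicate 3, 3 without EV untreated replicate 2, FL replicate 2 or H373R replicate 3, 4 without EV auxin replicate 1 or H373R replicate 1 or 2, and 13 without EV untreated replicate 1. The 10 became 8 to 11 without any other single library and 15 without EV untreated replicate 1. The H373R libraries lay below both EV auxin libraries in 14 of the 16, where this held for 28.6% of all tested genes. Summed TPM was 351, 525 and 513 in EV untreated, 459 and 436 in EV auxin, 351, 410 and 432 in FL auxin and 347, 361 and 356 in H373R auxin libraries. EV untreated replicate 1 was as low as the FL and H373R libraries. With GC and length trends removed, 6 members of the cluster fell with H373R against EV auxin. Among all tested genes, too, more were called in this fit and without EV untreated replicate 1, as given with the counts of members. Those shares count both directions. The share of all tested genes that was lower in each alternative fit is not given here, so changes in these counts may not be particular to the cluster. Of its 17 members 16 share more than 10% of their 50-base subsequences with another gene, so reads may be split between copies.

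Zfp600 and Zfp979 of this cluster have similar upstream sequences. Zfp600 fell from 14.1 and 14.2 CPM in EV auxin to 9.55, 9.57 and 8.73 with H373R (log2 fold change -0.61, SE 0.11, adjusted p = 0.0011). Zfp979 had 81.9 and 76.4 CPM in EV auxin and 75.7, 78.96 and 79.5 with H373R (log2 fold change -0.02, SE 0.15, adjusted p = 0.95). The difference between the 2 genes was not tested, and both were chosen after their values were seen. Zfp600 shares 83.3% (75.5% with Rex2) and Zfp979 24.6% of their 50-base subsequences with other genes, so part of their reads may come from copies. The 250 bases upstream of Zfp600 (chr4:146156577-146156826, plus strand) and Zfp979 (chr4:147642509-147642758, minus strand) matched at 241 of 256 aligned positions (94.1%). Bases that differ or have no partner are in capitals.
Zfp600: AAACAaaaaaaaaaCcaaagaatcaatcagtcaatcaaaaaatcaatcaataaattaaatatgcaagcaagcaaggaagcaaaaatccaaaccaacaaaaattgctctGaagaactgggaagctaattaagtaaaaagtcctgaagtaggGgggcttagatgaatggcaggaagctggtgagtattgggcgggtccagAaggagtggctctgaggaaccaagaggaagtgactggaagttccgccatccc
Zfp979: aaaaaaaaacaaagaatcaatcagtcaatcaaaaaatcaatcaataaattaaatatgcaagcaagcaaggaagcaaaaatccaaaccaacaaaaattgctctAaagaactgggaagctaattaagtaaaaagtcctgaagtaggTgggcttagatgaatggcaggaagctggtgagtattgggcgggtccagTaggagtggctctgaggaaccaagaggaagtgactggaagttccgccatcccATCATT

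Other clusters followed different courses. In the chromosome 8 cluster of Zfp866, summed TPM was 89.0 to 91.1 in EV auxin, 66.2 to 77.0 in FL auxin and 66.2 to 73.5 in H373R auxin libraries. Against EV auxin 2 of its 6 members fell with either form (33.3%, against 13.4% of all tested genes with FL and 11.7% with H373R). In the chromosome 8 cluster of Zfp709 and Zfp882, it was 91.8 to 116 in EV untreated libraries and 122 and 125 in EV auxin, and was 91.6 to 103 with FL or H373R. The chromosome 9 cluster of Zfp809 had 49.2 to 55.6 TPM in EV untreated, 44.2 and 47.2 in EV auxin, 34.4 to 40.5 with FL and 35.5 to 36.1 with H373R. The chromosome 7 cluster of Zfp689 and Zfp764 had 72.3, 53.1 and 59.1 TPM in EV untreated libraries, the first being the one that stands apart, and 61.8 and 62.7 TPM in EV auxin, 69.3 to 77.8 with FL and 70.9 to 79.5 with H373R. Its Zfp764 fell while Zfp689, Zfp747 and Zfp771 were higher than in EV untreated cells. The 4 members of a chromosome 2 cluster were close to 0 in all libraries, at most 0.117 TPM summed. They share 89.5% to 100% of their 50-base subsequences with other genes, so reads from them may not be assigned to them.

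**Figure D3:**
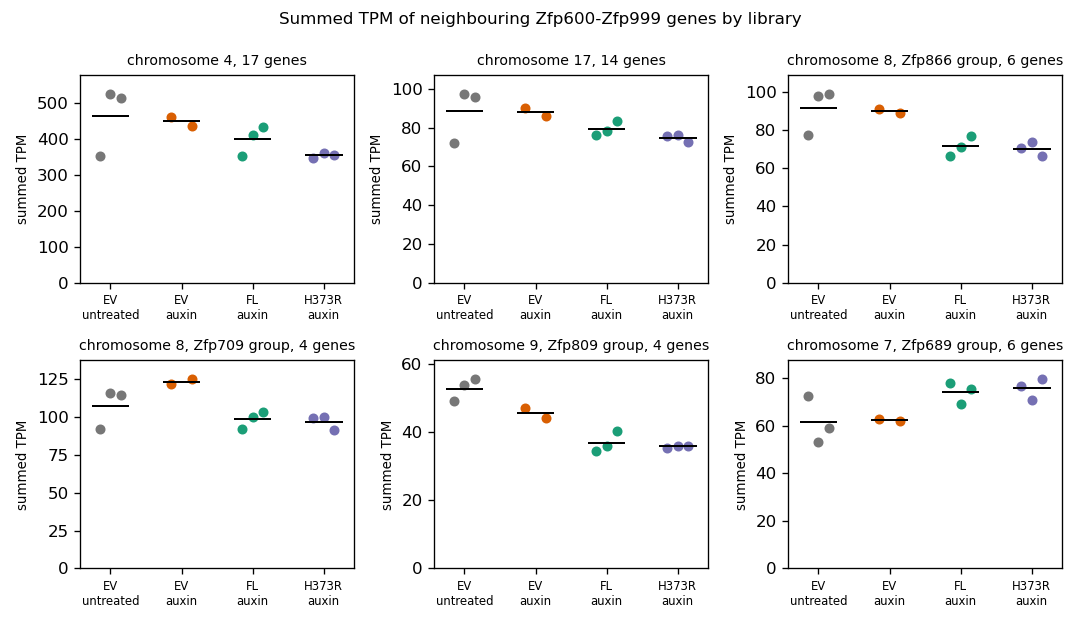
Summed TPM (y axis, from 0) of the members of 6 gene clusters in each library (points) by group (x axis), with the group mean as a line. The chromosome 4, 17, 9 and Zfp866 clusters are lower in H373R auxin than in EV auxin libraries, the Zfp709 cluster is highest in EV auxin, and the Zfp689 cluster is higher with FL and H373R than in EV auxin.

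Against EV untreated cells, FL cells had 18 members higher and 29 lower (47 of 158, 29.7%, against 36.9% of all tested genes, 17.7% higher and 19.2% lower). H373R cells had 18 higher and 46 lower (64 of 158, 40.5%, against 44.4%, 22.3% higher and 22.1% lower). With GC and length trends removed these were 32 and 29 with FL, and 25 and 41 with H373R (all genes 45% and 50% called). Without EV untreated replicate 1 they were 23 and 58, and 21 and 78 (all genes 47.2% and 54.7%). In the main fit, other Zfp genes outside the number range gave 18 higher and 35 lower of 193 with FL, and 22 and 53 with H373R. Zfp764 and Zfp786, described above, had the largest falls by the naming rule with H373R, and Zfp950 and Zfp786 with FL. FL against EV auxin and H373R against EV untreated share no library. Of the 18 members lower in the first, 14 were lower in the second, 77.8% of the first list and 30.4% of the second. Over all tested genes the shares were 49.7% and 30.1%. For H373R against EV auxin and FL against EV untreated, which share none either, 15 members were lower in both, 62.5% and 51.7% of the lists, where all tested genes gave 66.5% and 40.6%.

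**Figure D4:**
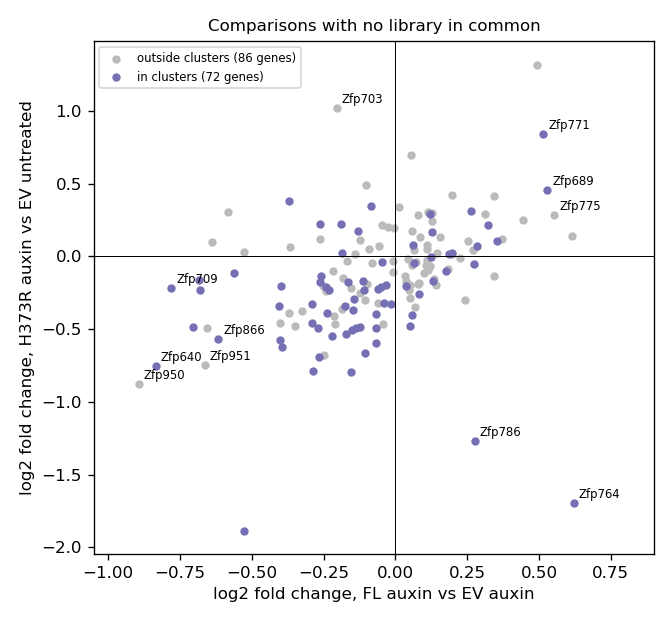
Log2 fold change of the 158 tested members with FL against EV auxin (x axis) and with H373R against EV untreated (y axis), with members in clusters in purple and others in grey. Zfp951, Zfp866, Zfp640 and Zfp950 lie low on both axes, Zfp689 and Zfp771 high on both, and Zfp764 and Zfp786 lie low on the y axis alone.

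Members with a described function and no call after auxin or with FL against EV auxin complete the picture. Zfp644, a partner of the histone methyltransferases Ehmt1 and Ehmt2, fell with H373R (log2 fold change -0.31, SE 0.09, adjusted p = 0.017), a call that was lost with GC and length trends removed and without either EV auxin library or H373R replicate 3. Zfp830 fell with H373R from 42.03 and 35.5 to 31.9, 31.2 and 31.1 CPM (log2 fold change -0.30, SE 0.07, adjusted p = 0.0081), a call lost without EV auxin replicate 1. Zfp618, a partner of Uhrf2, was lower than in EV untreated cells with FL (log2 fold change -0.46, SE 0.15, adjusted p = 0.023) and H373R (log2 fold change -0.68, SE 0.15, adjusted p = 0.0013). Zfp982 was also lower than in EV untreated cells with FL (adjusted p = 0.035) and H373R (adjusted p = 0.0084). Zfp687, which forms a complex with Zmynd8, was higher with FL (log2 fold change 0.26, SE 0.06, adjusted p = 0.0021) and H373R (log2 fold change 0.24, SE 0.06, adjusted p = 0.0027), and Zfp622, a 60S ribosome maturation factor, with FL (log2 fold change 0.24, SE 0.08, adjusted p = 0.027). Of these calls, that of Zfp618 with FL was lost without EV untreated replicate 1 or FL replicate 2 or 3, and those of Zfp982 and Zfp622 with FL were lost without EV untreated replicate 2 or 3 or FL replicate 1, that of Zfp982 also without FL replicate 2. The FL call of Zfp982 was also lost with GC and length trends removed, with DESeq2 and without a filter on low counts, and that of Zfp618 with DESeq2.

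Several retrotransposon regulators passed none of the 6 comparisons. Zfp819 had 6.08 to 8.20 CPM over all libraries, Zfp932, a silencer of endogenous retroviruses, 12.5 to 17.3 CPM, and Zfp661, known to limit CTCF binding at sites derived from retrotransposons, 5.31 to 8.26 CPM. Their differences from EV untreated to EV auxin cells were 0.03 (SE 0.11), 0.16 (SE 0.11) and -0.32 (SE 0.14) on the log2 scale. Zfp711, a partner of the demethylase Phf8 on the X chromosome, and Zfp639 also passed none. Zfp708, which binds a retroviral element in oocytes, had almost no counts and was not tested. All of its 50-base subsequences also occur in Gm28557. Exons of Gm28557 and Rslcan18 overlap 96.4% of its exon sequence on the same strand, so reads from it may not be assigned to it.

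The machinery through which KRAB proteins act was taken as a list of 38 tested genes. After auxin 4 rose and 3 fell (18.4%, against 20.7% of all tested genes), Trim28 (log2 fold change -0.04, SE 0.06, adjusted p = 0.65) and Setdb1 (0.16, SE 0.06, adjusted p = 0.057) not among them. The smallest adjusted p-values were those of the demethylase Kdm1a (-0.35, adjusted p = 4.2e-05), the DNA methyltransferase Dnmt3b (0.36, adjusted p = 5e-05) and the deacetylase Hdac1 (-0.30, adjusted p = 0.0023). With FL against EV auxin 5 rose and 6 fell (28.9%, against 24.5% of all tested genes). With H373R 4 rose and 11 fell (39.5%, against 21.7%), the lower calls being 28.9% against 11.7%. H373R against FL gave 0 and 4 (10.5%, against 5.96%). The Kdm1a libraries had 407 to 420 TPM in EV untreated and 312 to 335 TPM in all auxin-treated cells, with no overlap.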

How the data were processed

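RNA was measured in 11 libraries of 4 groups, 2 of them EV auxin (any further replicate was not analysed here). The authors deposited whole-number counts per gene symbol and TPM (counts scaled to gene length and library) for the same libraries. Libraries were made with a directional kit, per the labels, and the submitters' processing notes name featureCounts, Subread 2.0.3, DESeq2 and mm10/GRCm38. The aligner, annotation and strand setting are not given in the sources used here.

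Differential expression was computed from the counts with edgeR 4.0.16 (R 4.3.3): TMM scaling, the filterByExpr filter, a group-means model over all 11 libraries, the quasi-likelihood F test and Benjamini-Hochberg adjustment over the 16420 tested genes, with a threshold of 0.05. Standard errors are the larger of the model's and the Poisson error. The script was tested on simulated data. Alternatives used limma 3.58.1 on log2(TPM + 1), DESeq2 1.42.0, other scalings and filters, and leaving out each library. Total counts were 13465241 to 29902246. Counts carry no molecular identifiers, so PCR duplicates are included.

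Deviations of same-numbered libraries of different groups correlated at r -0.09 to 0.28 over 15 pairs, and those of different number at -0.20 to 0.13 over 30. All same-numbered pairs of EV untreated and FL libraries were positive (0.28, 0.12 and 0.096), while the other same-numbered pairs took both signs. The main fit used no replicate block, and counts with a block are given below. Gene positions, 50-base sharing and coding sequences came from GENCODE M21 (98.9% of tested symbols matched), and KRAB and finger counts from patterns in translated GENCODE coding sequences in place of RefSeq proteins, which can miss diverged domains. Promoters are RefSeq (GRCm38.p6).

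Members, lists and named genes were chosen with earlier results of these data known. Named were the largest called changes in each direction with libraries that do not overlap and a mean log2 CPM of at least 0 (5 after auxin, 4 for each comparison of FL or H373R with EV auxin and with each other, 2 against EV untreated), the 5 highest TPM, 20 genes of described function, and Trim28, Setdb1 and the 3 corepressor genes with the smallest p after auxin.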

Additional observations from a re-analysis of the deposited data

Results flagged for a closer look

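For Zfp719 and Zfp740 the 2 reintroduced forms of CTCF lay on opposite sides of EV auxin, and the difference between H373R and FL itself passed the edgeR test. Zfp719 was 0.18 above EV auxin with FL and, with H373R, at -0.23 on the log2 scale, neither called, and H373R against FL gave -0.41 (SE 0.11, adjusted p = 0.044, lower in 3 of 3 libraries). This call was lost with the replicate block and without any one of the FL or H373R libraries. Zfp740 was at 0.08 with FL and -0.12 with H373R against EV auxin, neither called, and H373R against FL gave -0.20 (SE 0.04, adjusted p = 0.0085, lower in 3 of 3 libraries).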

How the results depend on the processing

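The number of members called depended on the libraries and on GC correction more than on scaling. RLE and upper quartile scaling, DESeq2 and robust dispersion kept every count within 1.5 times. Leaving out single libraries gave 6 to 46 calls after auxin, 9 to 43 for FL against EV auxin, 10 to 53 for H373R against EV auxin, 1 to 21 for H373R against FL, 35 to 81 for FL and 50 to 99 for H373R against EV untreated, each highest without EV untreated replicate 1. In fits with 1 EV auxin library its spread was taken from the other groups. In this order of comparisons, removing GC and length trends gave 34, 41, 41, 10, 61 and 66 calls, and doing so without EV untreated replicate 1, an alternative chosen after seeing the data, 33, 53, 50, 21, 64 and 73. With the replicate block the counts were 13, 27, 36, 2, 48 and 71, and with the block and GC and length trends removed 33, 45 and 42 for the first 3 and 11 for H373R against FL. Fitting only the libraries compared gave 7 after auxin, 62 for H373R against EV auxin and 16 for H373R against FL. A threshold of 0.01 gave 8, 10, 20, 1 and 31 for the first 5, and a 2-fold minimum 3, 0, 0, 0, 3 and 5. H373R against FL gave 5 without a filter on low counts and 1 with limma on TPM under any of the 3 pseudocount and filter settings. The share of all tested genes called also rose without EV untreated replicate 1 and with GC and length trends removed, as given above. For most other settings that share is not given here, so a change in these counts may not be particular to members. Among named genes 183 values lost and 149 gained a call under some alternative. A called value turned direction for Zfp644 alone: against EV untreated it was -0.30 with H373R and became 0.034 with GC and length trends removed (0.034 with the block as well and 0.032 without EV untreated replicate 1), and with FL an uncalled -0.10 became a called 0.15 under these 3 settings. Depth limits low genes: the members not tested had at most 11 counts in any library.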
